A study of Mus musculus with 3 samples.

Results

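Peroxisome proliferator-activated receptor alpha (PPAR alpha, gene Ppara), its coactivator Ppargc1a and 7 genes known as its targets (Cyp4a10, Cyp4a14, Pdk4, Fabp1, Angptl4, Plin2 and Vnn1) were followed in mouse kidney. A probe set, the group of array probes designed for a transcript, was a member if the platform annotation gave it a single gene symbol and that symbol was 1 of these 9 genes. This found 17 of 45037 probe sets, for 8 of the 9 genes. Cyp4a10 had no probe set of its own, because the 1 probe set that names it also names a second gene, and no value is given for it.

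The arrays hold total kidney RNA of 3 C57BL/6 mice, 1 array per mouse: 1 control mouse and 2 mice given acetate (C2, a short-chain fatty acid), called mouse 1 and mouse 2 as in the labels. Acetate was given at 200 mM in the drinking water over 6 weeks, starting at an age of 3 weeks, under conventional housing. Not given in the sources used here are sex, food intake and the feeding state when the kidneys were taken. All values are deposited log2 expression values, on which a difference of 1 is 2-fold. With 1 control mouse, every difference carries whatever was particular to that kidney, and both acetate-fed mice are set against the same control value.

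PPAR alpha is a nuclear receptor that is activated by fatty acids. Paired with the retinoid X receptor, it binds a direct repeat of the hexamer AGGTCA and raises transcription of genes for uptake, binding, oxidation and storage of fatty acids. In kidney it is expressed mostly in the proximal tubule, a segment that draws most of its energy from fatty acids, and fasting raises many of its targets.

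Promoter sequences were at hand for 5 of the 9 genes (Ppara, Ppargc1a, Pdk4, Fabp1 and Plin2), from RefSeq on GRCm38.p6, and not for Cyp4a10, Cyp4a14, Angptl4 and Vnn1. The 250 bases before the transcript start given there were searched on both strands for AGGTCANAGGTCA, the direct repeat with 1 base between its hexamers. For Fabp1 and Pdk4 this start is the outermost start of the gene. For Plin2 it lies 158 bases inside the gene, for Ppara 866 and for Ppargc1a 548128, so the windows of the last 2 lie within their genes. The 3 target genes are shown because they are the only targets with a sequence at hand. They do not cover the range of responses described further on. Pdk4 and Fabp1 were lower in both mice and Plin2 was close to the control, while Cyp4a14 and Vnn1 had larger falls. For Plin2 the 92 bases of the window that lie outside the gene are shown. Each is written from 5′ to 3′ on the strand of the gene, with the closest match to the repeat in capitals. They lie at chr6:71199629-71199878 (Fabp1, plus strand), chr4:86670218-86670309 (Plin2, minus strand) and chr6:5496279-5496528 (Pdk4, minus strand).
Fabp1: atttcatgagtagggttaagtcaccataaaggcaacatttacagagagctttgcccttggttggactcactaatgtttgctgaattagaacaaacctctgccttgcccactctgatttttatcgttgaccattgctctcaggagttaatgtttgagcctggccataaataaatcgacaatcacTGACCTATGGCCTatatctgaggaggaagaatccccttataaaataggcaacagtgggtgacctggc
Plin2: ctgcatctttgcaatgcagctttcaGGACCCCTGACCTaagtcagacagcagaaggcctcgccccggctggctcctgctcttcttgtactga
Pdk4: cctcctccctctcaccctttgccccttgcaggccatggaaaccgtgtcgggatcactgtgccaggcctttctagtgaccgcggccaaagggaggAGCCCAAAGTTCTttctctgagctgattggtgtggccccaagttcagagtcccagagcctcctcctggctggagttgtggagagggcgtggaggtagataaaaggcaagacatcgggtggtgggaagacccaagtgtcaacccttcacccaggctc

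The Fabp1 stretch holds the repeat on the opposite strand, 67 to 55 bases before the start, with 1 mismatch (T4C, counted from the first base of the repeat). A match with at most 1 mismatch stood in 0.484% of the 32851 promoter stretches of the same length. In Plin2 the closest match had 2 mismatches (A8G and A13C), a limit met by 3.24% of the stretches, and it lies in the part shown. In Pdk4 it had 4 mismatches, which 74.5% of the stretches met, so these 250 bases of Pdk4 hold nothing close to the repeat. Ppara and Ppargc1a also had 4. These matches describe letters in a short window, and whether the receptor binds them was not measured.

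Most of the targets were lower in both acetate-fed kidneys, while the receptor and its coactivator were close to the control. Cyp4a14, Vnn1, Pdk4 and the brighter probe set of Fabp1 were at least 1.5-fold below the control in both mice. Plin2, Angptl4 and the dimmer probe set of Fabp1 were not. Of the 17 probe sets, 16 passed the filter on low values (the upper 60% by mean), and the 1 below it belonged to Angptl4. Of these 16, 10 lay below the control in both mice, against 27.5% of all 27022 tested probe sets, and 1 was higher in both, against 26.9%. On 4 of the remaining 5 the control lay between the mice, and 1 had the same value on all 3 arrays. At least 2-fold lower in both mice were 2 member probe sets, 1 of Cyp4a14 and 1 of Vnn1, against 0.359% of all, and none was 2-fold higher (background 0.344%). At least 1.5-fold lower in both were 5, against 1.23% of all, and 0 were 1.5-fold higher (background 1.67%). The median difference over the 16 was -0.18 in mouse 1 and -0.11 in mouse 2, and over all tested probe sets it was 0.00 in each.

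Limma's test, fitted across all tested probe sets with Benjamini-Hochberg adjustment at 0.05, called 2 of the 16 as lower, 1 of Pdk4 and 1 of Vnn1, against 5.35% of all tested probe sets. It called 0 as higher, where 5.18% of all were called, and 0 members as higher also at an unadjusted p of 0.05. The fit has 1 residual degree of freedom, the gap between the acetate-fed mice, so it favours probe sets on which both mice have nearly the same value. Of its 2846 calls, 92.3% had exactly the same value in both acetate-fed mice, while 33.7% of tested probe sets did, and a called difference was 0.13 at the median. Neither member call was such a tie. Both calls were lost after quantile normalization, after median centring and in the upper 40% of probe sets, where no probe set of the array was called (adjusted p of 0.24 at most for these 2). When exactly tied pairs were left out of the fit, 5 of the 15 member probe sets it tested were called lower (Cyp4a14, both of Vnn1, Pdk4 and 1 of Fabp1), against 4.97% of 17923 probe sets, and 0 higher (background 6.55%). That fit leans on a spread shared over the array (26.5 prior degrees of freedom against 1 from the mice).

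**Figure D1:**
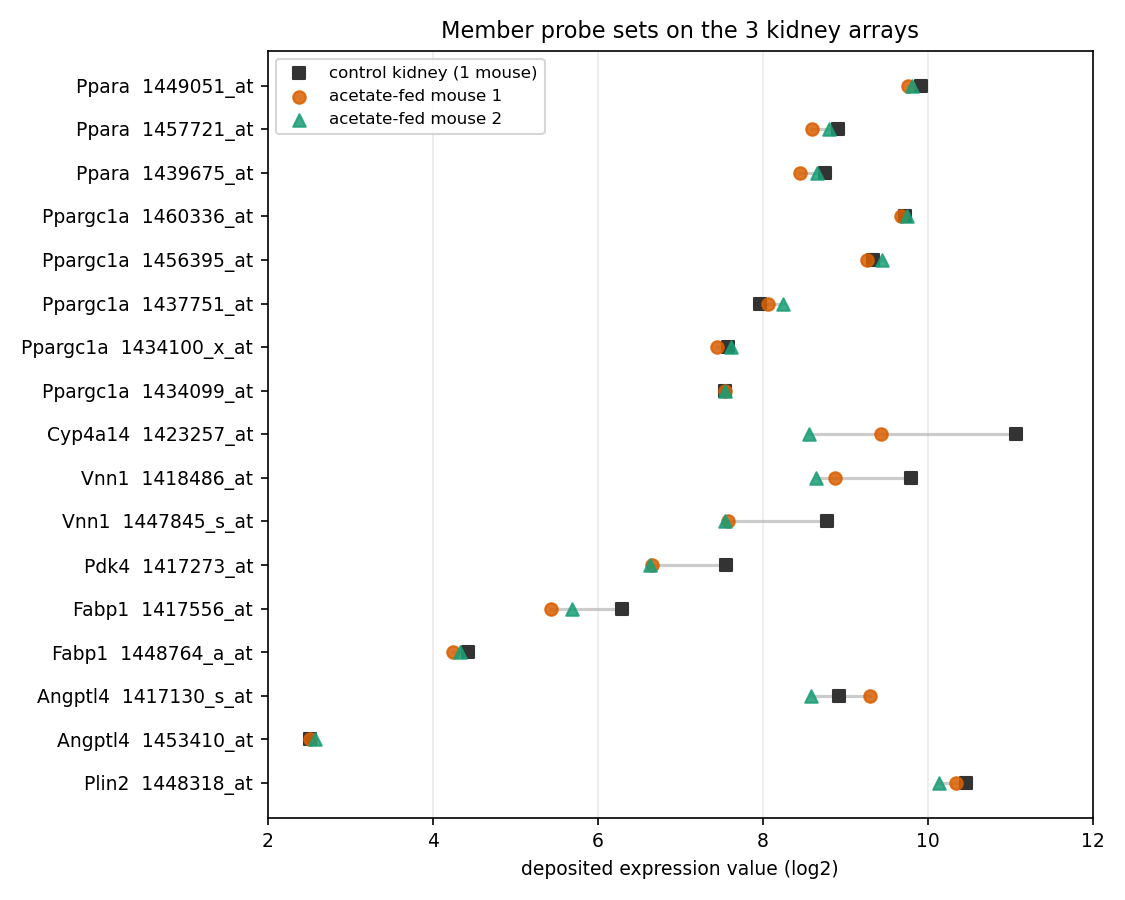
Deposited log2 expression values of the 17 member probe sets, 1 row each, with a square for the control kidney, a circle for acetate-fed mouse 1, a triangle for acetate-fed mouse 2 and a grey line over their range. The widest gap is that of Cyp4a14, from 11.07 in the control to 9.43 and 8.56, while the 3 Ppara and 5 Ppargc1a probe sets stay within 0.31 of the control.

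Ppara, the receptor itself, was measured by 3 probe sets. On 1449051_at it was 9.92 in the control kidney, with mouse 1 at 9.76 and mouse 2 at 9.81. On 1457721_at the values were 8.91, 8.60 and 8.80, and on 1439675_at they were 8.75, 8.45 and 8.66. The control was the highest array on all 3, and mouse 1 the lowest. The mean differences, -0.14, -0.21 and -0.20, were small beside the gap of 0.37 to 0.42 within which 95% of tested probe sets of like mean kept both acetate-fed mice, and none passed limma's test (adjusted p from 0.437 to 0.824).

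Ppargc1a encodes PGC-1 alpha, the coactivator that couples PPAR alpha to mitochondrial gene expression. Its brightest probe set, 1460336_at, was 9.73 in the control kidney, with mouse 1 at 9.68 and mouse 2 at 9.75, so the control lay between the mice. On 1456395_at the values were 9.34, 9.26 and 9.44, and on 1434100_x_at they were 7.58, 7.44 and 7.62. Mouse 2 was above mouse 1 on these 3 probe sets, with the control between them each time. On 1437751_at both mice were above the control, at 8.06 and 8.25 against 7.97, and on 1434099_at all 3 arrays had the value 7.54. The mean differences of the 5 ran from -0.05 to 0.18, and none passed limma's test (adjusted p of 0.803 or more).

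The other receptors of the family and their partners also stayed near the control, with 1 of 5 tested genes lower in both mice and 0 called. This 1 was Pparg, the adipocyte regulator PPAR gamma, at 6.52 in the control kidney, with mouse 1 at 5.95 and mouse 2 at 6.01 (adjusted p = 0.154, limma). Ppard, PPAR delta, was 7.86 in the control kidney, with mouse 1 at 7.94 and mouse 2 at 7.51, with the mice on either side. Rxra, Rxrb and Rxrg, the retinoid X receptors, had differences between -0.07 and 0.00. Among 12 tested coactivators, corepressors and energy sensors, 5 were lower and 2 higher in both mice, with 0 called lower and 1 called higher. Ppargc1b, the close relative PGC-1 beta, stood out from Ppargc1a: it was 8.87 in the control kidney, with mouse 1 at 7.92 and mouse 2 at 8.09, 1.92-fold and 1.71-fold lower (adjusted p = 0.255, limma). Sirt3, a mitochondrial deacetylase, was 9.82, 9.23 and 9.42, and the histone acetyltransferase Crebbp rose from 8.02 to 8.18 in both mice (adjusted p = 0.0283, limma). This call rests on an exactly tied pair, and Crebbp was not called with tied pairs left out (adjusted p = 0.997, limma, on another of its probe sets). Its 4 tested probe sets had mean differences from -0.85 to 0.16, so the direction depends on the probe set.

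Cyp4a14, a microsomal cytochrome P450 that hydroxylates the end carbon of fatty acids, gave the largest difference of the 17. It was 11.07 in the control kidney, with mouse 1 at 9.43 and mouse 2 at 8.56. Both mice were far below the control, 3.10-fold and 5.67-fold, and they differed from each other by 0.87. This gap is wider than the 0.42 that held for 95% of tested probe sets of like mean. Counted from the lowest difference among 27022 tested probe sets, Cyp4a14 was number 42 in mouse 1 and number 26 in mouse 2. The mean difference was -2.07 with a standard error of 0.65 and did not pass limma's test (adjusted p = 0.46).

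The related genes of this pathway did not follow to the same extent, and none of 3 tested was called in either direction. Cyp4a31, which lies next to Cyp4a10 in the gene cluster that also holds Cyp4a14, was 10.92 in the control kidney, with mouse 1 at 10.53 and mouse 2 at 10.38. These genes are closely related and probes may be shared between them, so the single values are uncertain. Cyp4a12a, known for its higher level in males, went the other way, from 5.11 in the control to 5.33 and 5.86. Aldh3a2, which oxidises fatty aldehydes, was lower in both mice, by 0.12 and 0.09.

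Vnn1, vanin 1, splits pantetheine into cysteamine and pantothenate, the precursor of coenzyme A. On 1447845_s_at it was 8.78 in the control kidney, with mouse 1 at 7.58 and mouse 2 at 7.54. On 1418486_at it was 9.80, 8.87 and 8.65. The control was the highest array on both, and the mice lay close together. The first probe set fell 2.29-fold in mouse 1 and 2.36-fold in mouse 2 (mean difference -1.22, standard error 0.03, adjusted p = 0.0465, limma). The second was 1.90-fold and 2.21-fold lower, with a mean difference of -1.04 and a standard error of 0.16 (adjusted p = 0.27, limma). So both probe sets gave a similar size, and the test separated them by the gap between the mice, 0.04 against 0.22.

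Of 7 tested genes of pantetheine and coenzyme A synthesis, 4 were lower and 2 higher in both mice. Pank1, a pantothenate kinase that PPAR alpha is known to induce, was 9.79 in the control kidney, with mouse 1 at 9.18 and mouse 2 at 9.34 (adjusted p = 0.356, limma). Its 4 tested probe sets were all lower on average, by 0.53 to 0.12. Ppcs, the next enzyme of the route, was 8.73, 8.14 and 8.31 (adjusted p = 0.396, limma). Ppcdc was the 1 gene of this list that passed limma's test, and it rose by only 0.10, from 7.75 to 7.85 in both mice (adjusted p = 0.039). It is an exactly tied pair too, so the fit without such pairs left this probe set out. On another of its probe sets Ppcdc was not called there (adjusted p = 0.997, limma). The mean differences of its 3 tested probe sets ran from -0.02 to 0.10. Vnn3, another vanin gene, was 5.19 in the control and differed by 0.11 and 0.02.

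Pdk4 encodes a kinase that switches off pyruvate dehydrogenase and so spares glucose when fatty acids are burned. It was 7.56 in the control kidney, with mouse 1 at 6.66 and mouse 2 at 6.63. Both mice were below the control by nearly the same amount, 1.86-fold and 1.90-fold. Pdk4 fell by 0.91 on average, with a standard error of 0.02 (adjusted p = 0.0457, limma). The other genes of the pyruvate dehydrogenase switch did not share this: of 7 tested, 4 were lower and 2 higher in both mice, 0 were called, and the list median was -0.08 in mouse 1 and -0.02 in mouse 2. Pdp2, a phosphatase that reverses the kinase, was 8.29 in the control kidney, with mouse 1 at 7.87 and mouse 2 at 7.98. Pdk1, a second kinase, was 7.95, 7.96 and 8.40, higher in mouse 2 alone.

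Fabp1 encodes the liver-type fatty acid binding protein, and its promoter stretch, shown above, carries the near-complete repeat. On 1417556_at it was 6.30 in the control kidney, with mouse 1 at 5.43 and mouse 2 at 5.69. The mice were 1.84-fold and 1.53-fold below the control, with a mean difference of -0.75 and a standard error of 0.19 (adjusted p = 0.405, limma). The dimmer probe set 1448764_a_at was 4.43, 4.24 and 4.33, in the same direction but by 0.15 on average (adjusted p = 0.616, limma), and the mean over both was -0.45. It lies just above the lowest mean tested, 4.21. Genes of fatty acid uptake, binding and activation were mixed, with 4 of 9 tested lower and 1 higher in both mice and 0 called. The fatty acid receptor and transporter Cd36 was 9.57 in the control kidney, with mouse 1 at 9.34 and mouse 2 at 9.08, and the transport protein gene Slc27a1 was 7.89, 7.53 and 7.69.

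Angptl4 encodes a secreted inhibitor of lipoprotein lipase. On 1417130_s_at it was 8.93 in the control kidney, with mouse 1 at 9.30 and mouse 2 at 8.59. The mice fell on opposite sides of the control, 1.29-fold above and 1.26-fold below, and their gap of 0.71 was above the 0.37 seen for 95% of like probe sets. Its second probe set, 1453410_at, was at 2.51, 2.51 and 2.57, below the filter. Lpl, the lipase that Angptl4 inhibits, was lower in both mice: 12.91 in the control kidney, with mouse 1 at 11.67 and mouse 2 at 11.40, which is 2.36-fold and 2.86-fold (adjusted p = 0.259, limma). Lmf1, needed for maturation of the lipase, was 8.50, 8.06 and 8.13, whereas Gpihbp1, which carries the lipase in capillaries, was higher in both mice, by 0.29 and 0.19. None of these 3 was called.

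Plin2 coats lipid droplets in many cell types. It was 10.46 in the control kidney, with mouse 1 at 10.34 and mouse 2 at 10.14. Both mice were below the control, 1.09-fold and 1.25-fold, with a mean difference of -0.22 and a standard error of 0.15 (adjusted p = 0.747, limma). Of the other droplet coat and lipolysis genes, 7 of 7 tested were lower in both mice, against 30.9% of 13473 tested genes, with a list median of -0.59 (mouse 1) and -0.42 (mouse 2), and 0 were called. Lipe, hormone-sensitive lipase, was 8.45 in the control kidney, with mouse 1 at 7.22 and mouse 2 at 7.42, 2.35-fold and 2.04-fold lower. Plin5, a droplet coat protein of oxidative tissues, was 6.76, 5.63 and 5.87. Lipe and Lpl were the 2 pathway genes at least 2-fold lower in both mice, against 0.460% of tested genes. None was at least 2-fold higher (background 0.408%).

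**Figure D2:**
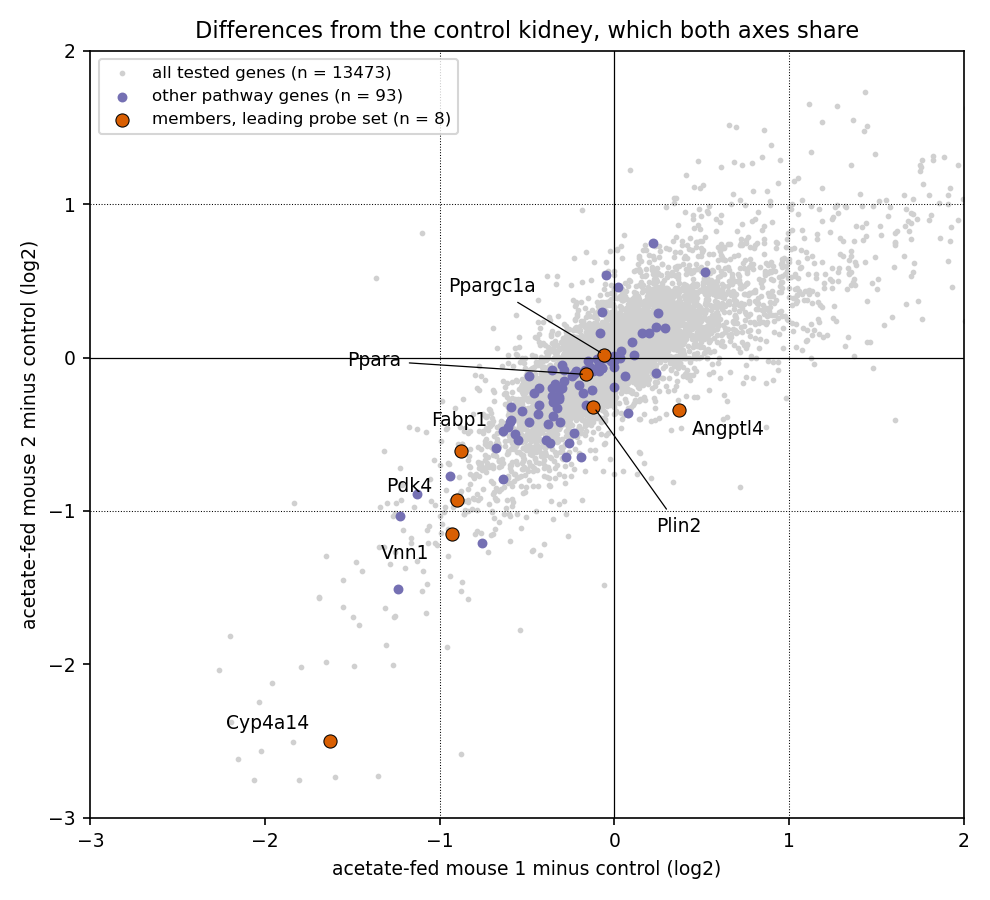
Difference from the control on the log2 scale in acetate-fed mouse 1 (horizontal) and acetate-fed mouse 2 (vertical), for all 13473 tested genes in grey, 93 other pathway genes in purple and the leading probe set of 8 members in orange, with dotted lines at 2-fold. Fabp1, Pdk4, Vnn1 and Cyp4a14 lie at the lower left and Ppara, Ppargc1a and Plin2 near the centre; 44 genes lie outside the axes, and both axes subtract the same control value.

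Fatty acid oxidation enzymes, the best known targets of the receptor, were slightly lower in a broad way. Of 32 tested genes of both beta-oxidation lists, 29 were lower in both mice, against 30.9% of all tested genes. None was higher in both, against 26.0%. Markers of the early and middle proximal tubule, described further on, had a shift of similar size. Of these 6 markers 5 were lower in both mice, with a median of -0.26 in each. The part of that segment, or of the fat cells described further on, in the differences of the enzymes was not tested. In peroxisomes 11 of 13 were lower, with a median of -0.32 (mouse 1) and -0.35 (mouse 2), 1 of them called by limma. Ehhadh, the peroxisomal bifunctional enzyme, was 11.35 in the control kidney, with mouse 1 at 10.59 and mouse 2 at 10.14, 1.69-fold and 2.31-fold lower (adjusted p = 0.488, limma). Acaa1b, a peroxisomal thiolase, was 11.73, 11.45 and 11.07. The called gene was Abcd3, a peroxisomal membrane transporter, which fell from 10.98 to 10.65 in both mice (adjusted p = 0.0285, limma, and 0.0769 with tied pairs left out). Cat, catalase, had differences of 0.00 and -0.01.

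In mitochondria 18 of 19 beta-oxidation genes were lower in both mice, with a median of -0.24 (mouse 1) and -0.21 (mouse 2), and 0 were called. Eci1, an enoyl-CoA isomerase, was 10.77 in the control kidney, with mouse 1 at 10.09 and mouse 2 at 10.19. Cpt2, the inner carnitine palmitoyltransferase, was 10.84, 10.21 and 10.36. Cpt1a, the outer and rate-limiting one, stayed at the control level, with differences of -0.06 and 0.00. At least 1.5-fold lower in both mice was 1 of 13 peroxisomal and 1 of 19 mitochondrial genes, against 1.60% of tested genes.

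The 2 tested ketogenesis genes went in opposite directions: Acat1 was 12.16 in the control kidney, with mouse 1 at 11.84 and mouse 2 at 11.91, and Bdh1 was 11.01, 11.20 and 11.17. Of 6 other known targets tested, 4 were lower and 1 higher in both mice, and 2 were called lower. Gpd1, which links glycerol to glycolysis, fell from 10.78 to 10.23 and 10.24 (adjusted p = 0.0269, limma), and Ucp3, a mitochondrial uncoupling protein, fell by 0.07 (adjusted p = 0.013). Ucp3 is an exactly tied pair, so the fit without such pairs left this probe set out. Its other tested probe set, with a mean difference of -0.25, was not called there (adjusted p = 0.485, limma). Gpd1 is not a tied pair and was called in that fit too (adjusted p = 0.00225, limma). Txnip, an inhibitor of thioredoxin and glucose uptake, was the 1 higher in both mice, 1.44-fold and 1.47-fold (adjusted p = 0.0924, limma). Over the 12 lists, 107 genes were named, 93 were tested, 11 had no probe set of their own and 3 were below the filter. Of the 93, 63 were lower and 11 higher in both mice, 7 were at least 1.5-fold lower in both and 0 at least 1.5-fold higher (background 1.75%). Limma called 3 lower, against 4.92% of tested genes, and 2 higher, against 3.97%, so calls were no more frequent than over all tested genes, and 3 of these 5 calls (Crebbp, Ppcdc and Ucp3) were exactly tied pairs. Without exactly tied pairs 22 of 92 were called lower and 1 higher, against 5.60% and 6.14% of 10444 genes.

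**Figure D3:**
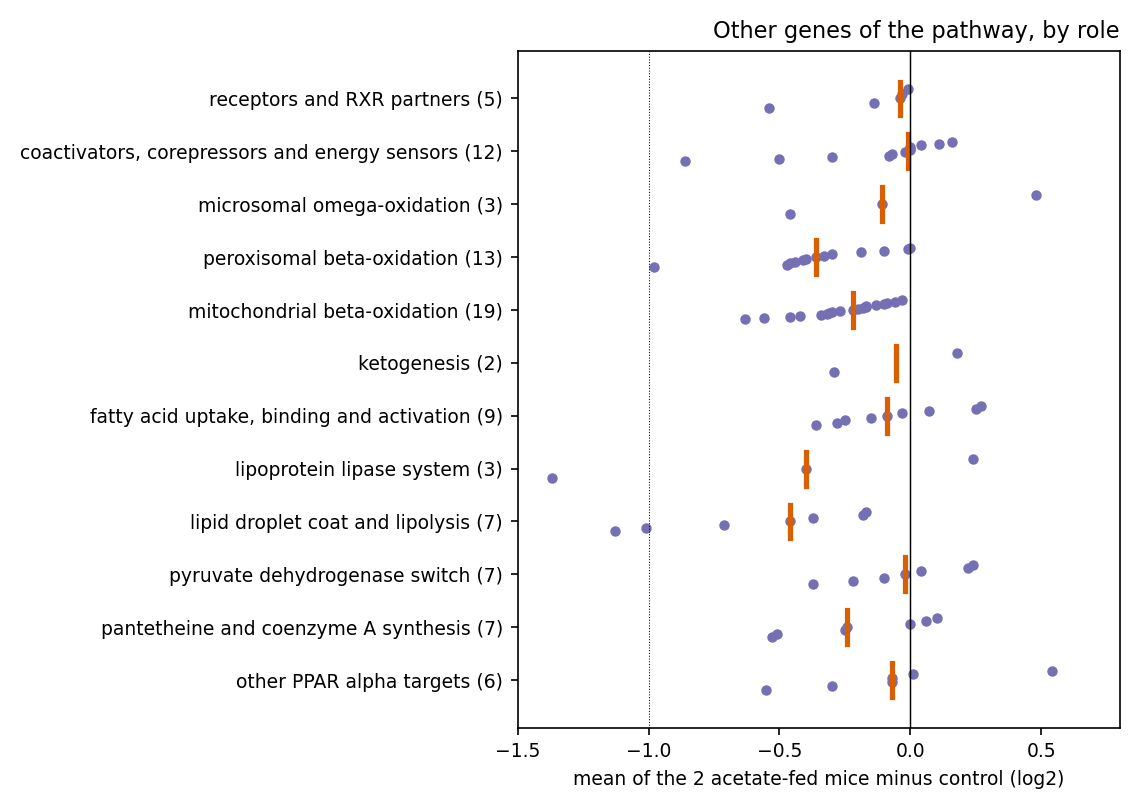
Mean difference of the acetate-fed mice from the control (log2) for 93 tested pathway genes, 1 point per gene and 1 row per role, with the number of genes in brackets, an orange bar at each row's median and a dotted line at 2-fold lower. The droplet, lipase and beta-oxidation rows lie mostly left of 0, while receptors, coactivators and the pyruvate dehydrogenase switch centre near it.

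Fat cell markers moved with the groups. All 5 tested adipocyte markers were lower in both acetate-fed mice, with a mean level of 8.73 in the control kidney against 5.53 (mouse 1) and 5.36 (mouse 2). Adipoq, adiponectin, was 9.98 in the control kidney, with mouse 1 at 4.38 and mouse 2 at 3.87. Of 4 tested brown fat markers 3 were lower, among them the uncoupling protein gene Ucp1 at 8.53, 4.50 and 4.70. The median differences were -3.06 (mouse 1) and -3.33 (mouse 2) for the adipocyte list and -3.12 and -3.11 for the brown fat list, and those of the other cell type lists were smaller in size. Adipocytes also express Pparg, Lpl, Lipe, Plin4, Plin5, Gpd1, Cd36, Pdk4, Plin2 and Angptl4, among others. Brown fat cells also express beta-oxidation enzymes. The part of the fat cells in the differences of all these genes was not tested.

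Markers of the proximal tubule, the segment in which PPAR alpha and Cyp4a genes are chiefly expressed in kidney, were lower more often than higher. Of 6 markers of the early and middle segment, 5 were lower and 1 was higher in both mice. Their mean level was 12.10 in the control kidney against 11.84 (mouse 1) and 11.82 (mouse 2). The largest falls were those of Slc4a4 (-0.60 in mouse 1 and -0.51 in mouse 2) and Cubn (-0.39 and -0.58). Slc5a12 was the 1 higher, by 0.01 and 0.13. Of 6 markers of the late segment, 3 were lower and 1 higher in both mice, with mean levels of 9.28, 9.40 and 9.32. These means hide large shifts of single markers, named here after their values were seen. The amino acid transporter gene Slc7a13 was 4.93 in the control kidney, with mouse 1 at 7.03 and mouse 2 at 7.88, while Slc22a7, an organic anion transporter gene, was 11.90, 11.47 and 10.61, and Cyp7b1, a steroid hydroxylase gene, was 6.38, 5.49 and 5.49. Without Slc7a13, left out after its value was seen, the mean levels of the other 5 were 10.15, 9.88 and 9.60. Not all of these fell: Slc5a1 (0.02 in mouse 1 and -0.06 in mouse 2) and Aadat (0.12 and -0.17) had the mice on either side of the control. Cyp7b1 is also among the androgen-dependent genes described further on. Slc34a1, the phosphate transporter that defines the early segment, was 13.41, 13.24 and 13.17, so this marker of the labelled tissue was high on every array. In whole tissue, fewer cells of a type and less RNA per cell cannot be told apart. All 7 macrophage markers were higher in both mice, with a mean level of 7.74 in the control kidney against 9.54 (mouse 1) and 8.75 (mouse 2). Of 3 tested hepatocyte markers, 2 were lower in both mice, with Alb, albumin, at 7.85, 6.20 and 6.56. Of 5 listed adrenal markers only 2 passed the filter, at low values of 4.81 and 5.95 in the control kidney. These 2 differed by at most 0.02. The part of these markers in the member differences was not tested.

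Kidney Cyp4a genes differ between the sexes in mice. Xist, the RNA of the inactive X chromosome, was 11.80 in the control kidney, with mouse 1 at 12.03 and mouse 2 at 11.85, and all 9 probe sets of 3 Y-linked genes were at 3.45 or less on every array. By these genes the 3 arrays do not differ in sex. High Xist with low Y-linked genes is the female pattern, and all 3 arrays had it. Of 7 tested genes known to depend on androgen in kidney, 5 were lower in both mice, against 30.9% of all tested genes. The median over the 7 was -0.25 (mouse 1) and -0.60 (mouse 2), but the sizes were unlike. Cyp2e1 was 4.06-fold and 5.92-fold lower and Acsm3 2.34-fold and 1.65-fold. Slco1a1 had the value 4.38 on all 3 arrays, but this is close to the lowest mean tested, 4.21, so a change could be missed.

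**Figure D4:**
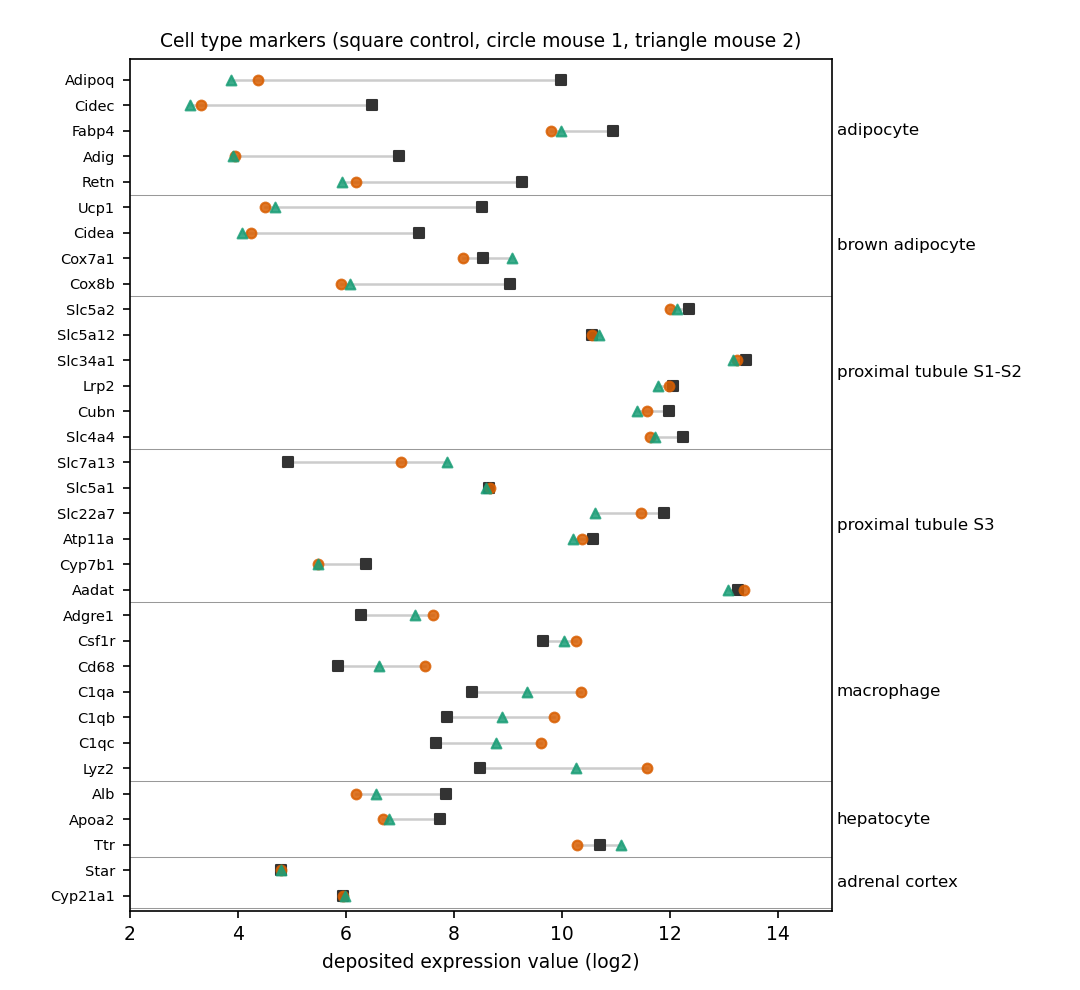
Deposited log2 expression values of 33 tested cell type markers, 1 row per gene, grouped by cell type on the right, with a square for the control kidney, a circle for acetate-fed mouse 1 and a triangle for acetate-fed mouse 2. Adipocyte and most brown adipocyte markers lie far below the control in both mice (Adipoq from 9.98 to 4.38 and 3.87), and macrophage markers lie above it. Of 6 markers of the early and middle proximal tubule, 5 lie below it in both mice, by smaller amounts.

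The genes whose pair of differences lay nearest to those of the 3 members with the largest change were looked up among all tested genes, over the 3 arrays and by Euclidean distance. Nearest to Cyp4a14 were Bhmt, a betaine-homocysteine methyltransferase (differences of -1.84 in mouse 1 and -2.51 in mouse 2), Ly6f (-1.60 and -2.73) and the carboxylesterase Ces2b (-1.81 and -2.75). Nearest to Vnn1 were the fatty acid synthase gene Fasn (-0.95 and -1.12), the heme-binding protein gene Hebp1 (-0.99 and -1.14) and the urate transporter gene Slc22a12 (-0.99 and -1.09). Nearest to Pdk4 were Grip1 (-0.93 in each mouse), Lrtm2 (-0.93 in each) and the cytidine deaminase gene Cda (-0.86 and -0.94). A pattern of 2 differences that share a control is met by many genes, and nothing on shared control follows from it.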

How the data were processed

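Biotin-labelled total kidney RNA was hybridised to single-colour arrays, 1 per mouse, grouped by the labels. The values deposited by the authors are log2 expression values with medians of 4.91 to 4.94. The submitters' processing notes name MAS5, with summary, version and filters not given in the sources used here. As deposited, 30.0% of probe sets hold 1 identical log2 value on every array and 44.9% on both acetate-fed arrays. Background and saturation are unknown without scanner files, and precision is limited by the number of arrays.

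Of 45037 probe sets that are not array controls, 34945 had 1 gene symbol, 932 several and 9160 none listed; 34741 matched RefSeq by Entrez identifier. The upper 60% by mean were tested with limma 3.58.1 in R 4.3.3 (lmFit, eBayes with an intensity trend, two-sided). The fit was also run on simulated arrays, but these held no tied pairs. That run therefore cannot show how the fit behaves on the tied values here. The single control is taken to vary as the acetate-fed pair does, and p-values cover only the spread between these mice. The tested probe set of highest mean stood for a gene.

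The members and gene lists were chosen with earlier results of these data known. Named genes were all members and, per pathway list, those called, those at least 2-fold from the control in both mice and the 2 with the largest mean difference; Rxra, Rxrb, Rxrg, Aldh3a2, Vnn3, Gpihbp1, Cat and Cpt1a were added after their values were seen. Alternatives covered normalization, filter, ties, spread, fold threshold, probe set per gene and leaving out each acetate-fed mouse.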

Additional observations from a re-analysis of the deposited data

How the results depend on the processing

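The signs of the mean differences of Cyp4a14, Pdk4, Plin2, both Fabp1, both Vnn1 and all 3 Ppara probe sets were the same under all alternatives run, those of Angptl4 and 4 of 5 Ppargc1a probe sets were not. Limma's calls depended on the setting. The 2846 calls over all probe sets, the 2 among members and the 5 among pathway genes became 0, 0 and 0 after quantile normalization, after median centring and in the upper 40% of probe sets. At an unadjusted p under 0.05 these settings left 4303, 4959 and 3513 probe sets, 4, 5 and 2 of them members. Both normalizations break exact ties. With no filter 6523 probe sets were called. Without tied pairs 5 members and 23 pathway genes were called, and without an intensity trend 8 pathway genes. With the spread taken from the intensity trend alone, 20542 probe sets, 15 members and 86 pathway genes were called; a trend over so many tied pairs is close to 0, so these counts mean little. The 190 probe sets past 2-fold in both mice were 783 at 1.5-fold, and leaving out 1 acetate-fed mouse gave 306 to 508, since only the other mouse then counts. Other counts stayed within 1.5 times. No paired analysis was possible because the control carries no replicate number and is 1 array.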
